A study of Equus caballus with 28 samples.

Results

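The family of miR-204 and miR-211 in uterine fluid (UF) was followed through all libraries of a study of early pregnancy in the horse. Its members were the known horse miRNAs whose name is eca-miR-204 or eca-miR-211 with any letter or arm suffix. There were 2 of them, eca-miR-204b and eca-miR-211, among the 844 miRNAs counted, of which 690 were known and 154 were predicted. The family was put forward because of the level of eca-miR-211 in UF, so every level of UF set against another sample type is a description and carries no test. Comparisons of pregnant with cyclic samples, and of embryo or yolk sac (YS) fluid with endometrium, did not use that choice and were tested. For eca-miR-211 the tests of embryo and YS fluid against endometrium have a limit that is given with them.

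Small RNA was sequenced from 28 samples collected 13 days after ovulation from Warmblood mares that served as their own controls. In the pregnant cycle the mare was inseminated with fresh semen of a single stallion, and in the cyclic cycle the mare was left unbred; mares of both cycles had received hCG to induce ovulation. The groups were pregnant UF (5 mares), cyclic UF (4 mares), pregnant endometrium (5 mares), cyclic endometrium (4 mares), and the YS fluid (5) and embryonic tissue (5) of the conceptuses from the pregnant cycles, with the capsule removed. UF was absorbed by a tampon placed in the uterus before the flush that recovered the embryo, and the endometrial biopsy was taken afterwards. Water was added to the tampon, which was then centrifuged, and the supernatant was kept as UF. Mare 5 had no cyclic library among those analysed here. RNA of UF and YS fluid was extracted with a serum and plasma kit and RNA of endometrium and embryo with a tissue kit, so fluid and kit cannot be told apart.

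A miRNA is a short RNA that guides a silencing complex to messenger RNAs, chosen mainly by the bases near its start, the seed. miR-204 and miR-211 belong to the same family because they share this seed, and can so bind largely the same sites. In mammals miR-204 lies in an intron of TRPM3 and miR-211 in an intron of TRPM1, genes of ion channels of the TRP group. The family is best known from the retinal pigment epithelium, the choroid plexus and, for miR-211, the pigment cells of the skin. The RefSeq gene table of the horse also placed MIR211, with the older names eca-mir-204a and eca-mir-211, within TRPM1, and it placed eca-mir-204b-2 within TRPM3. The members differ by few bases, and how the counting program treated reads that match several miRNAs is not given in the sources used here. The division of reads between them is therefore uncertain, and so is whether a shared read was counted once or for each.

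Libraries held between 4352 and 590593 counted reads. The medians were 337972 in pregnant endometrium, 119492 in pregnant UF, 36203 in embryos and 13066 in YS fluid. Levels are given as CPM (counts per 1000000), the reads of a miRNA scaled by all known and predicted miRNA reads of its library. A single read was worth 4.42 to 16.1 CPM in UF, and 68.8 to 230 CPM in YS fluid. A list of embryonic miRNAs set the conceptus samples apart from the maternal ones. The summed level of 8 miRNAs of pluripotent and early embryonic cells was 12020 to 65295 CPM in embryos and 34891 to 264130 CPM in YS fluid. It was at most 32.2 CPM in any UF or endometrial library.

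eca-miR-204b was an abundant miRNA of endometrium and UF in either cycle. In cyclic UF it measured 14919, 8449, 7844 and 7839.7 CPM in mares 1 to 4, a mean of 9763 ± 3449.5 CPM (SD, n = 4). In pregnant UF it measured 12714, 7465, 5966, 4025 and 6732 CPM in mares 1 to 5, a mean of 7380.4 ± 3246 CPM (SD, n = 5). The fluid of mare 1 held the highest level of its group in both cycles, and the ranges of the groups overlapped.

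In cyclic endometrium eca-miR-204b measured 9865, 9533, 9983 and 8136 CPM in mares 1 to 4, with a mean of 9379 ± 850.3 CPM (SD, n = 4). In pregnant endometrium it measured 10656.5, 10596, 9526, 8934 and 6396 CPM in mares 1 to 5, with a mean of 9222 ± 1739.6 CPM (SD, n = 5). All 4 maternal groups therefore overlapped, and the order of their means (cyclic UF, cyclic endometrium, pregnant endometrium, pregnant UF) separated no neighbours beyond their spread. The miRNA took between 0.738% (pregnant UF) and 0.976% (cyclic UF) of a group's reads on average. It ranked 13th to 26th among the known miRNAs of a library in endometrium and 15th to 31st in UF.

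The coefficient of variation of eca-miR-204b was 9.07% in cyclic and 18.9% in pregnant endometrium, against 35.3% in cyclic and 44.0% in pregnant UF. The counting error expected at these depths was between 1.77% and 3.48%, so the spread between mares exceeded it in all 4 groups. Whether the spread differed between UF and endometrium was not tested.

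eca-miR-211 was the minor member of the family throughout. In cyclic UF it measured 591, 181, 950.3 and 395 CPM in mares 1 to 4 (529 ± 327 CPM, SD, n = 4), from 280 reads in all. In pregnant UF it measured 719.9, 259, 321, 337 and 568 CPM in mares 1 to 5 (441 ± 195 CPM, SD, n = 5), from 250 reads. Its ranges in pregnant and cyclic UF overlapped, and mare 2 held the lowest level in both cycles.

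In cyclic endometrium eca-miR-211 measured 80.9, 83.0, 102 and 97.0 CPM in mares 1 to 4 (90.8 ± 10.5 CPM, SD, n = 4), from 95 reads. In pregnant endometrium it measured 49.4, 68.1, 38.9, 125 and 31.3 CPM in mares 1 to 5 (62.5 ± 37.5 CPM, SD, n = 5), from 107 reads. The lowest UF library, at 181 CPM, was above the highest endometrial library, at 125 CPM. The miRNA ranked 50th to 100th among the known miRNAs of a UF library and 118th to 167th in endometrium.

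**Figure D1:**
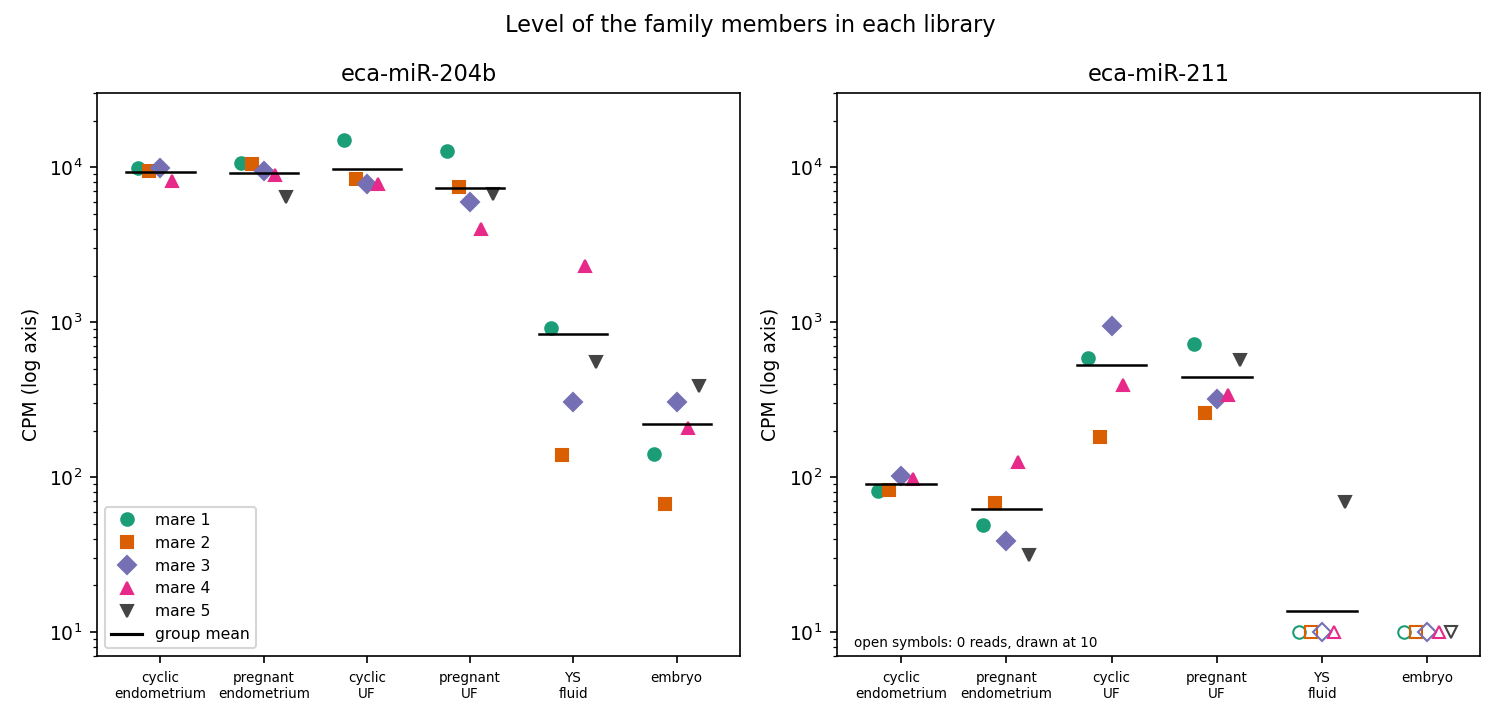
Level of eca-miR-204b (left) and eca-miR-211 (right) in each of the 28 libraries, as CPM on a log axis, by sample group. Symbols mark the mares and horizontal lines the group means; open symbols are libraries with 0 reads. The maternal groups overlapped for eca-miR-204b, while for eca-miR-211 all 9 UF libraries (181 CPM or more) were above all 9 endometrial libraries (125 CPM or less).

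YS fluid and embryo held little of the family. eca-miR-204b measured 923, 138, 306, 2298 and 551 CPM in YS fluid of the conceptuses of mares 1 to 5, from 7, 2, 4, 10 and 8 reads, with a mean of 843 ± 865 CPM (SD, n = 5). In the embryos it measured 141.8, 67.0, 304, 208 and 386 CPM, from 4, 3, 11, 6 and 16 reads, with a mean of 221 ± 127 CPM (SD, n = 5). Every embryo and YS library was below the lowest maternal library of 4025 CPM, and the ranges of YS fluid and embryo overlapped.

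eca-miR-211 had 0 reads in the 5 embryos, of 179448 reads counted there. A count of 0 allows up to 16.7 CPM over the group, taken as 3 reads, a limit that covers counting error only, as amplified copies of a molecule are not independent. Over the pooled reads of each group, and against this limit, eca-miR-211 was at least 3.48-fold higher in pregnant endometrium and at least 26.3-fold higher in pregnant UF than in the embryos. These bounds leave out the counting error of the higher group and the spread between mares. The lowest library of pregnant endometrium held 31.3 CPM, from 9 reads. In YS fluid eca-miR-211 had 1 read of 53989, in the library of mare 5. The pooled level in pregnant endometrium was 3.14 times that in YS fluid, with a 95% exact counting interval of 0.551 to 125 that includes 1. That of pregnant UF was 439 CPM, against 18.5 CPM in YS fluid.

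Within mare and cycle, the level in UF was above that in endometrium in all pairs for eca-miR-211 and on either side for eca-miR-204b. In pregnant mares 1 to 5 the ratio of UF to endometrium for eca-miR-211 was 14.6, 3.81, 8.23, 2.70 and 18.2. In cyclic mares 1 to 4 it was 7.31, 2.18, 9.29 and 4.07. The level was thus higher in UF in 5 of 5 pregnant and 4 of 4 cyclic mares, by 2.89 ± 1.19 (SD, n = 5) and 2.31 ± 0.93 (SD, n = 4) on the log2 scale.

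For eca-miR-204b the same ratios were 1.19, 0.705, 0.626, 0.451 and 1.05 in pregnant mares 1 to 5. They were 1.51, 0.886, 0.786 and 0.964 in cyclic mares 1 to 4. UF was higher in 2 of 5 pregnant and 1 of 4 cyclic mares, with mean log2 ratios of -0.40 ± 0.57 (SD, n = 5) and 0.0053 ± 0.41 (SD, n = 4). The ratios of the abundant member thus lay on either side of 1, and those of the minor member were all above 1.

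**Figure D2:**
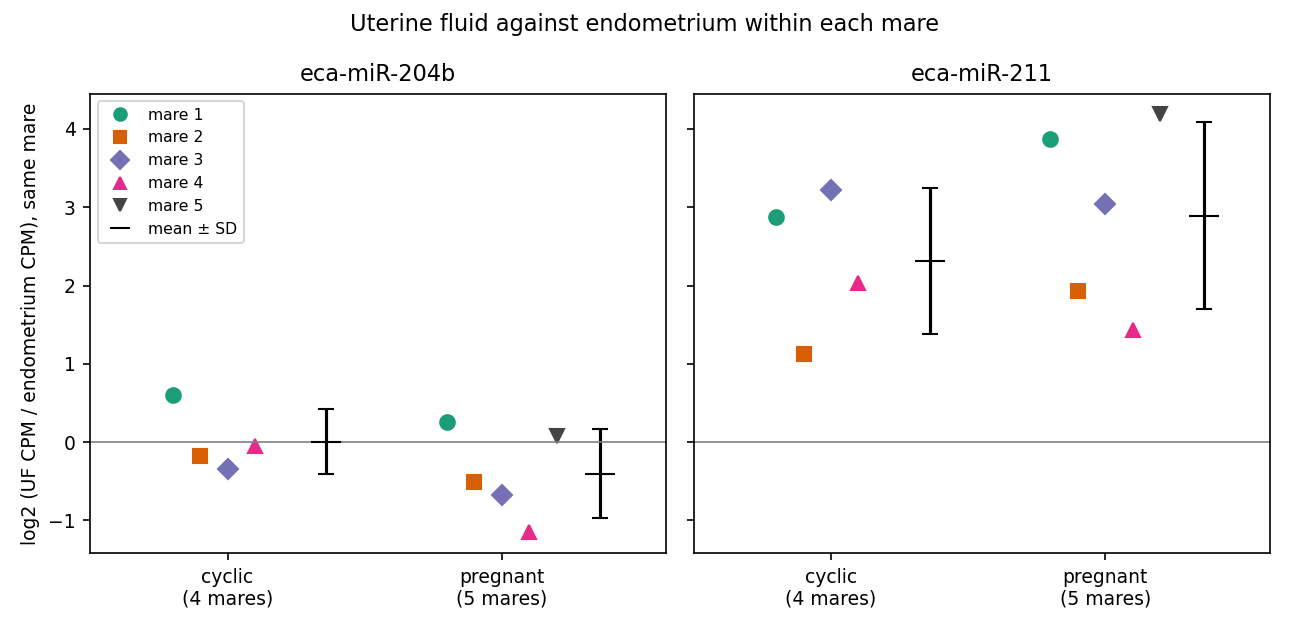
Log2 ratio of the CPM in UF to the CPM in endometrium of the same mare and cycle, for eca-miR-204b (left) and eca-miR-211 (right). Each symbol is a mare and bars are mean ± SD over 4 cyclic or 5 pregnant mares. The ratios of eca-miR-211 were above 0 in all 9 pairs, and those of eca-miR-204b lay on either side of 0.

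The make-up of the family differed accordingly. eca-miR-211 was 0.813% to 1.18% of the reads of the family in cyclic endometrium and 0.407% to 1.38% in pregnant endometrium. It was 2.10% (95% Wilson interval 1.55% to 2.84%) to 10.8% (8.47% to 13.7%) in cyclic UF. In pregnant UF it was 3.36% (2.38% to 4.73%) to 7.79% (5.87% to 10.3%). The means were 0.967% ± 0.164 and 0.675% ± 0.403 in cyclic and pregnant endometrium, and 5.38% ± 3.79 and 5.87% ± 1.89 in cyclic and pregnant UF (SD, n = 4, 5, 4 and 5). Every UF library was above every endometrial library. The Wilson intervals of cyclic mare 2 in UF (from 1.55%) and pregnant mare 4 in endometrium (to 1.91%), the nearest libraries, overlapped. In the embryos 0 of 40 family reads were eca-miR-211, which allows a share of up to 7.5%, so the embryos could not be set apart from UF or endometrium in this measure.

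**Figure D3:**
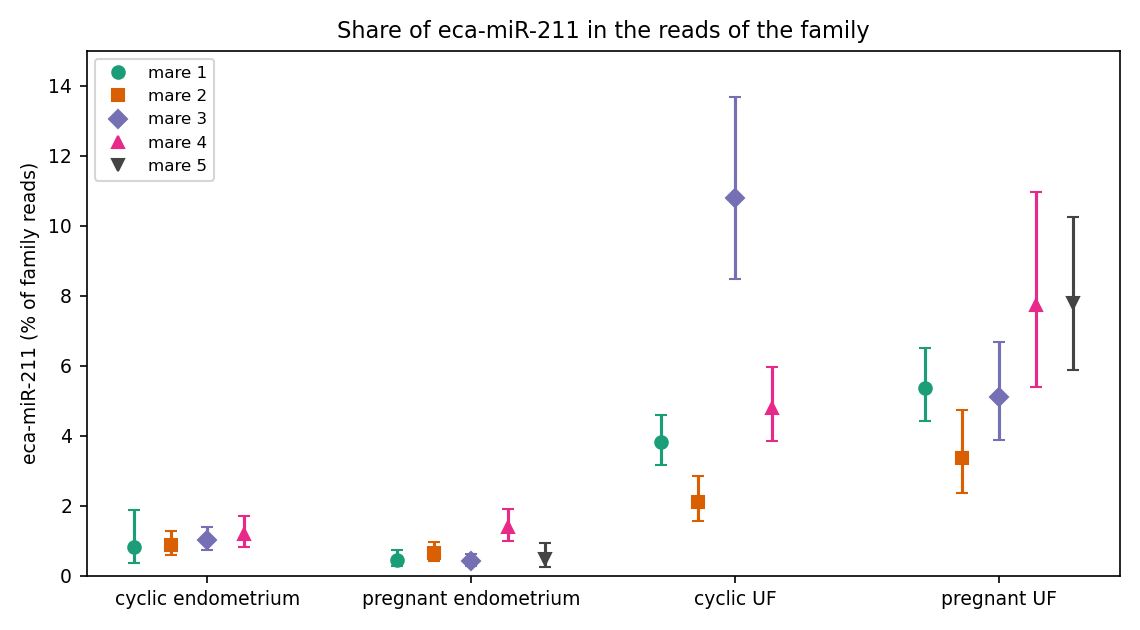
Share of eca-miR-211 in the reads of the family, in percent, for each endometrial and UF library, with 95% Wilson intervals that cover counting error only. Shares ran from 0.407% to 1.38% in endometrium and from 2.10% to 10.8% in UF.

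In a fit of UF against endometrium with edgeR, the log2 fold change of eca-miR-211 was 2.71 in pregnant and 2.45 in cyclic mares. Those of eca-miR-204b were -0.45 and -0.078, of which the latter turned to 0.058 with library totals in place of TMM. The median known miRNA stood at -0.43 and -0.44. Of 248 known miRNAs in pregnant mares, 8 had a larger fold change than eca-miR-211, and of 242 in cyclic mares, 8 did. Among those averaging at least 100 CPM, 5 did in pregnant and 4 in cyclic mares. For eca-miR-204b, 125 miRNAs had a larger and 122 a smaller fold change in pregnant mares, and 92 a larger and 149 a smaller one in cyclic mares. Among those averaging at least 100 CPM, 74 were larger and 49 smaller in pregnant mares, and 51 and 72 in cyclic mares.

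**Figure D4:**
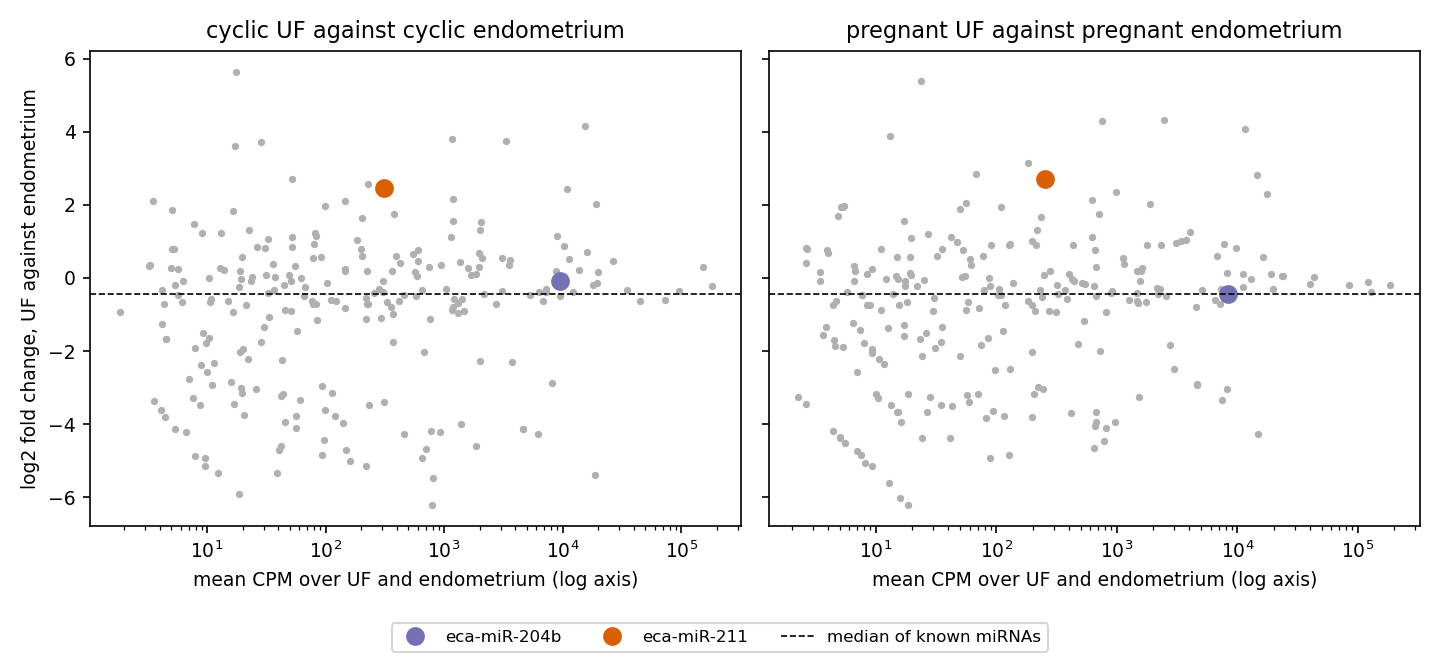
Log2 fold change of UF against endometrium for each known miRNA (grey points) by its mean CPM over UF and endometrium (log axis), in cyclic (left) and pregnant (right) mares. eca-miR-211 (orange) stood at 2.45 and 2.71 and eca-miR-204b (purple) at -0.078 and -0.45; the dashed line is the median of known miRNAs, at -0.44 and -0.43.

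Other miRNAs also differed between UF and endometrium. The 5 miRNAs of ciliated epithelium (miR-34b, miR-34c and the miR-449 group, which act in the formation of motile cilia) summed to 44969 to 78546 CPM in UF and 2699 to 19261 CPM in endometrium. Their median log2 fold change in pregnant UF against endometrium was 2.82, beside -0.12 for all features tested. The 7 miRNAs of smooth muscle and stroma summed to 364 to 8071 CPM in UF and 17516 to 56910 CPM in endometrium, with a median of -2.99. The 2 of endothelium had a median of -4.56 and the 4 of red cells of -3.09. The 6 epithelial miRNAs had a median of 0.35 and the 5 of white cells of -0.44. All members of these 6 lists had reads in UF except 1 of the 4 red-cell miRNAs in cyclic UF, and the part of cell make-up in the level of eca-miR-211 was not tested. In bulk tissue, fewer cells of a type and less RNA per cell cannot be told apart. UF was a supernatant after centrifugation, so its levels do not stand for numbers of cells.

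The list of the retina and eye, where the family is abundant, differed from the ciliated list. By its median it was lower in pregnant UF than in endometrium, as were the lists of stroma, endothelium, red cells and white cells. Its 6 miRNAs (miR-9a, miR-96, miR-124, miR-182, miR-183 and miR-184) summed to 1224 to 3392 CPM in UF, 1840.2 to 6907 CPM in endometrium, 7577 to 17403 CPM in YS fluid and 36803 to 72950 CPM in the embryos. Their median log2 fold change in pregnant UF against endometrium was -1.110 over the 4 that could be fitted, which ran from -4.09 (eca-miR-9a) to -0.28 (eca-miR-182). The summed level was highest in the embryos, where eca-miR-211 had 0 reads. A link between this list and eca-miR-211 was not tested. A sum can rest on few members of the list.

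Whether pregnancy changed the family in UF was addressed by the pregnant and cyclic cycles of the same mares. No member was called at a false discovery rate (FDR, Benjamini-Hochberg) of at most 0.05 with a change of at least 2-fold. By edgeR's quasi-likelihood test, with the mare as a block, 0 of 2 members passed, beside 4.92% of all 305 miRNAs tested. With known miRNAs only, 3 of 220 were called. The paper holds that its predicted miRNAs were likely too many, through duplicates with nearly the same counts. edgeR's likelihood ratio test and DESeq2 also called 0 of 2, and 0 of 2 had an unadjusted p under 0.05 by any of these tools.

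The ratio of pregnant to cyclic UF for eca-miR-204b was 0.852, 0.884, 0.761 and 0.513 in mares 1 to 4, lower in 4 of 4. The log2 fold change was -0.35 (SE 0.33, 95% confidence interval -1.01 to 0.30, adjusted p = 0.809 by edgeR). An exact two-sided sign-flip test over the 4 mares gave p = 0.125, the smallest that 4 mares allow. An exact permutation test of the 9 libraries, without the pairing, gave p = 0.254, where the smallest possible is 0.0159. The interval spans no change and reaches a 2-fold lower level. Its variance was shared by all 305 miRNAs tested, so it does not measure the spread of eca-miR-204b over the 4 mares.

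For eca-miR-211 the ratio of pregnant to cyclic UF was 1.22, 1.43, 0.337 and 0.854, higher in 2 of 4 mares. The log2 fold change was -0.15 (SE 0.48, 95% confidence interval -1.09 to 0.80, adjusted p = 0.996 by edgeR), and the exact permutation test gave p = 0.841. Without mare 3 its sign turned, to 0.33 (adjusted p = 0.805). The interval of the main fit spanned no change and held a 2-fold lower level, so a decrease of that size was not excluded. Its variance was likewise shared by all miRNAs tested. Within mares the log2 ratio was -0.25 ± 0.93 (SD, n = 4), so the upper end of the interval does not exclude a 2-fold increase.

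In the endometrium 0 of 2 members were called, beside 3.37% of all 386 miRNAs, again with 0 of 2 by the likelihood ratio test and DESeq2 and 0 of 2 with an unadjusted p under 0.05. With known miRNAs only, 2 of 267 were called. The ratio of pregnant to cyclic endometrium for eca-miR-204b was 1.08, 1.111, 0.954 and 1.10 in mares 1 to 4. Its log2 fold change was 0.32 (SE 0.21, 95% confidence interval -0.089 to 0.73, adjusted p = 0.544 by edgeR). With library totals in place of TMM it was 0.083. The exact permutation test of the 9 libraries, which uses library totals and includes mare 5, compared a log2 difference of -0.043 (p = 0.857). For eca-miR-211 the ratios were 0.611, 0.819, 0.381 and 1.29, lower in 3 of 4 mares. The log2 fold change was -0.26 (SE 0.47, 95% confidence interval -1.18 to 0.65, adjusted p = 0.915 by edgeR), and the exact permutation test gave p = 0.135. The variance of both intervals was shared by all 386 miRNAs, so they do not measure the spread of a member over mares.

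**Figure D5:**
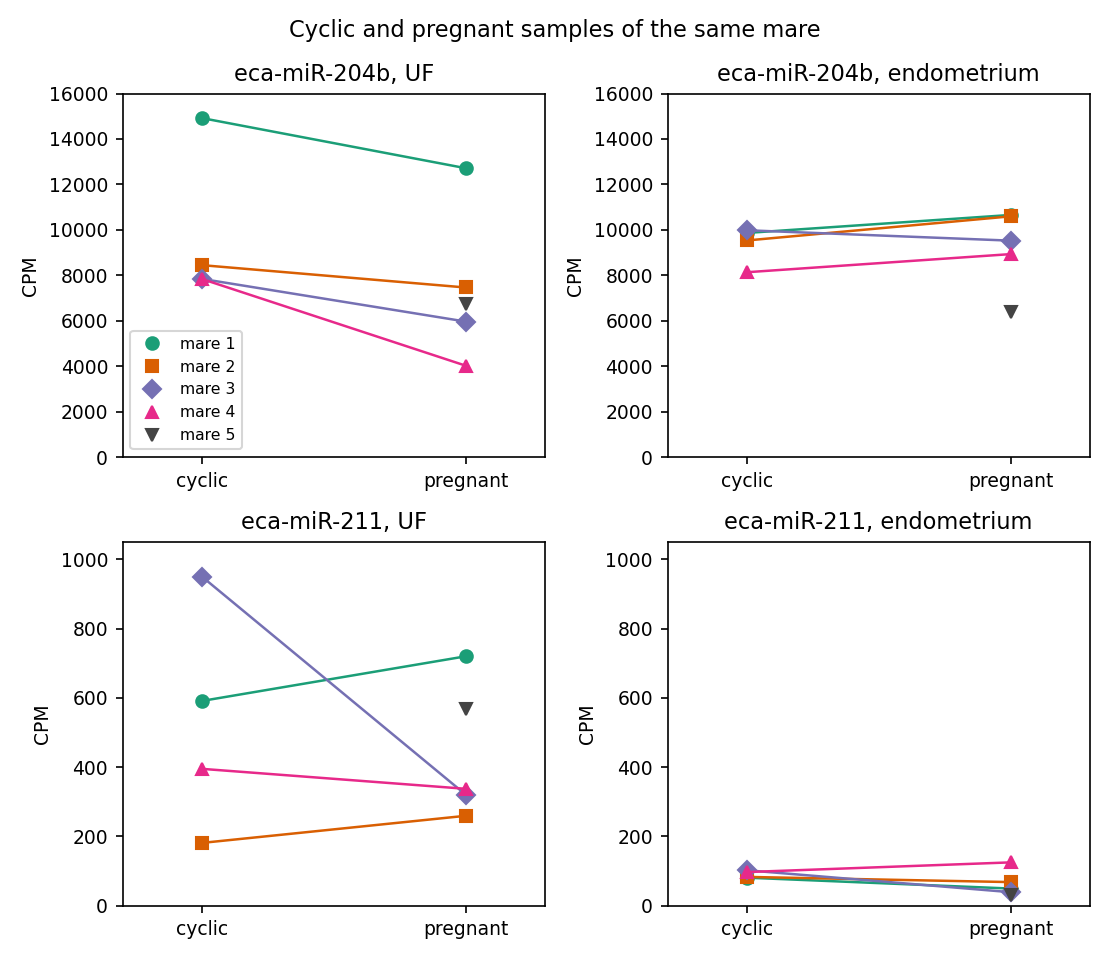
CPM of eca-miR-204b (top) and eca-miR-211 (bottom) in UF (left) and endometrium (right) of each mare in the cyclic and the pregnant cycle, with lines joining the cycles of the same mare; mare 5 had a pregnant cycle only. eca-miR-204b in UF was lower in the pregnant cycle in 4 of 4 mares, and the other panels held mares moving in either direction.

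The difference between the pregnancy effects in UF and in endometrium was tested as an interaction. For eca-miR-204b the effect in UF was lower than that in endometrium by 0.79 on the log2 scale (estimate -0.79, SE 0.38, 95% confidence interval -1.56 to -0.017). It did not pass the correction over 415 miRNAs (unadjusted p = 0.0455, adjusted p = 0.737 by edgeR). The main fit gave the largest difference, as 12 alternatives ran from -0.79 to -0.43. With RLE size factors it was -0.56 (unadjusted p = 0.130 by edgeR), and without mare 4 it was -0.43 (unadjusted p = 0.440 by edgeR). The median of all features in the main fit was -0.27, so relative to it the difference was -0.52. For eca-miR-211 the difference was -0.010 (SE 0.62, 95% confidence interval -1.27 to 1.24, adjusted p = 1.0 by edgeR). Of all features, 1.69% were called and 0 of 2 members. An unadjusted p under 0.05 was found for 1 of 2 members with edgeR's quasi-likelihood test and for 0 of 2 with its likelihood ratio test and with DESeq2.

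Of the miRNAs on the lists of ciliated, epithelial, stromal, endothelial, red-cell, white-cell and eye miRNAs, 32 were tested in UF and 0 were called, beside 4.92% of all miRNAs. Fitted with known miRNAs only, 3 of 220 were called in UF and 2 of 267 in endometrium. In the endometrium 33 list members were tested and 1 was called, beside 3.37% of all miRNAs. It was eca-miR-9a of the eye list, a miRNA of neural tissue, at a log2 fold change of 1.23 (adjusted p = 0.000946 by edgeR). Its range was 701 to 2244 CPM in pregnant and 194 to 3988 CPM in cyclic endometrium, so the groups overlapped. The call depends on the mare as block, since no miRNA was called in endometrium without it or in a single fit of all 28 libraries. Of the embryonic list, 8 of 8 miRNAs did not pass the filter in either comparison.

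The conceptus was set against the endometrium of the pregnant mares. eca-miR-204b was lower in the embryos by a log2 fold change of -6.75 (SE 0.48, 95% confidence interval -7.79 to -5.71, adjusted p = 2.88e-07 by edgeR). It was lower in YS fluid by a log2 fold change of -5.69 (SE 0.64, 95% confidence interval -7.06 to -4.32, adjusted p = 2.33e-06 by edgeR). The ranges did not overlap in either comparison. Of all miRNAs tested, 42.6% of 359 were called lower in the embryos and 35.2% of 341 in YS fluid, and 28.7% and 17.9% higher. With library totals in place of TMM 26.2% and 17.3% were called lower and 39.0% and 34.9% higher. The scaling moved all values, since the median of all features stood at -1.03 and -0.84. Relative to these medians eca-miR-204b differed by -5.72 and -4.86. With library totals the values were -5.37 and -3.69, and relative to the medians -5.67 and -4.85.

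Against pregnant UF, as a description, eca-miR-204b differed by -6.64 in the embryos and -5.23 in YS fluid on the log2 scale. Among known miRNAs, 9 of 254 had a more negative fold change than eca-miR-204b in embryo against endometrium, and 19 of 241 did in YS fluid.

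eca-miR-211 was also called lower than in pregnant endometrium, with an adjusted p of 0.000760 in the embryos and 0.00431 in YS fluid by edgeR. It had reads in 5 endometrial libraries, 0 embryos and 1 YS library, so it passed the filter through the endometrium, where it is higher. A call could therefore hardly go the other way, and these calls add nothing to the counts. The fitted fold change of eca-miR-211 is not given because it rests on 0 reads and 1 read. In these comparisons 71.3% (embryos) and 53.1% (YS fluid) of all miRNAs were called in either direction. The call of eca-miR-211 in YS fluid depended on the tool and the scaling. It was kept with RLE size factors (adjusted p = 0.0282 by edgeR). It was also kept without mare 5, whose YS library held the 1 read (adjusted p = 0.00578 by edgeR). It was lost with DESeq2 (adjusted p = 0.0519) and with library totals (adjusted p = 0.228 by edgeR), the scale on which the counting interval of the pooled ratio also included 1.

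Embryo and YS fluid did not differ beyond their spread in eca-miR-204b. The log2 fold change of embryo against YS fluid was -1.13 (SE 0.71, 95% confidence interval -2.68 to 0.42, adjusted p = 0.220 by edgeR), in a comparison where 35.1% of 259 miRNAs were called. In a single fit of all 28 libraries it was -1.49 and was called (adjusted p = 0.0375 by edgeR). Without the samples of mare 4 it was -0.55 (adjusted p = 0.551 by edgeR), and that of YS fluid against pregnant endometrium was then -6.55. eca-miR-204b varied 16.6-fold among YS libraries, and the ciliated and the stromal miRNAs had the same order there. In YS fluid of the conceptuses of mares 1 to 5 the ciliated list summed to 3823, 761, 1531, 8961 and 1789 CPM and the stromal list to 1978, 623, 1531, 6893 and 1652 CPM. All were highest in the library of mare 4, which had the fewest reads, 4352. The part of maternal RNA and of depth in these values was not tested.

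The known miRNAs with the pattern most like eca-miR-204b were found by Pearson's correlation of log2 CPM, among 113 known miRNAs averaging at least 100 CPM in UF. Over 28 libraries they were eca-let-7c (0.994), eca-let-7e (0.990), eca-miR-10a (0.989), eca-let-7a (0.988) and eca-let-7g (0.984). These were abundant in the maternal samples and low in the conceptus. eca-let-7c averaged 120423 CPM in pregnant endometrium and 123001 CPM in pregnant UF, against 13168 CPM in YS fluid and 3301 CPM in embryos. eca-miR-211 itself correlated at 0.822 with eca-miR-204b and came 41st. The points share their libraries and the gap between maternal and conceptus groups.

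Over the 9 UF libraries, as deviations from the mean of the pregnant or cyclic group, eca-miR-204b was most like eca-miR-99b (0.796), eca-miR-10a (0.783), eca-miR-125a-5p (0.749), eca-miR-191a (0.732) and eca-miR-192 (0.669). Its correlation with eca-miR-211 was 0.388 (Spearman's rho 0.533), the 15th highest, beside a rho of 0.623 over 28 libraries. The libraries of highest eca-miR-204b were those of mare 1 and the library of highest eca-miR-211 was that of cyclic mare 3, whose depth of 62087 reads was the lowest in UF.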

How the data were processed

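Small RNA libraries of 28 samples were sequenced by the study. Reads were trimmed by the authors (cutadapt 1.11), filtered for length and quality, and passed to miRPro with miRBase and the genome EquCab2.0, which counted known and predicted further miRNAs. The authors deposited raw read counts per miRNA, without normalization. Known and predicted miRNAs were analysed together. The table of precursors repeats the counts of the predicted miRNAs (154 of 154) and was not used.

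Features reaching 1 CPM in at least the smaller group's number of libraries were fitted with edgeR 4.0.16 in R 4.3.3 (TMM, quasi-likelihood test, Benjamini-Hochberg over all features tested). Pregnant and cyclic samples were compared with the mare as block, as the study describes cycles of the same mares, so mare 5 entered the scaling but not that contrast. The number in the sample name was taken as the mare. Deviations of same-mare pregnant and cyclic samples correlated at 0.242 on average in UF and 0.176 in endometrium, against -0.0615 and -0.0450 for different mares. As deviations sum to 0 in a group, the values for different mares follow from the others and are no separate yardstick. Single pairs ran from 0.029 to 0.384 in UF and from -0.097 to 0.286 in endometrium. Between UF and endometrium of the same mare the mean was 0.040 in pregnant and -0.0028 in cyclic cycles, so this check showed no pairing there. Each mare gave 1 sample per group and cycle. Descriptions and exact tests used plain CPM, and exact tests log2 CPM, in Python 3.11.15 with scipy 1.17.1. Alternatives were the likelihood ratio test, DESeq2 1.42.0, RLE size factors, no filter, filterByExpr, known miRNAs only, the block left out or added, a single fit, each mare left out, and, chosen after seeing the data, library totals and the members summed. The fits were tested on simulated data.

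The members, lists and tests were chosen with earlier results of these data known. Named are the members, the 5 known miRNAs most correlated with eca-miR-204b over 28 and over 9 UF libraries among those of at least 100 CPM in UF, and list members called between cycles.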

Additional observations from a re-analysis of the deposited data

Results flagged for a closer look

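The level of eca-miR-204b in cyclic UF of mare 1, 14919 CPM, stood apart from the other 3 libraries of its group, which lay between 7839.7 and 8449 CPM. Its gap to the nearest library was 0.914 of the range of the group, above Dixon's 95% limit for 4 samples. This was 1 of 20 ends of groups examined for the 2 members, and chance flags about 1 in 20 groups. The pregnant UF of the same mare was also the highest of its group, at 12714 CPM. Without mare 1 the log2 fold change of pregnant against cyclic UF was -0.44 (adjusted p = 0.895 by edgeR).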

How the results depend on the processing

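Of 228 alternative values for the members, 203 kept their sign and, where tested, their side of the threshold, without moving by more than the spread between replicates where untested. They include 13 of eca-miR-211 in embryo and 13 in YS fluid against endometrium, of which 13 and 11 were the same. As the filter all but fixed the direction there, these add little to the count. There were 19 changes of sign, 2 lost calls and 1 gained call, and 4 untested values moved by more than that spread. The lost calls were those of eca-miR-211 in YS fluid against endometrium, where the fitted value, which rests on 1 read, was -2.33 with DESeq2 and -1.72 with library totals. The gained call was eca-miR-204b in embryo against YS fluid, at -1.49 with 28 libraries in a single fit; filterByExpr gave no value there. Of the changes of sign, 11 were in tested values, none of which was called. eca-miR-204b in endometrium was -0.043 with the mare ignored in the exact test. eca-miR-211 in UF ranged from -0.46 to 0.33 with a mare left out. The interaction of eca-miR-211 was 0.26 with DESeq2, 0.25 with RLE, 0.084 without a filter, 0.10 with filterByExpr, 0.18 with known miRNAs only, and -0.082 to 0.52 with a mare left out. The other 8 were of eca-miR-204b in cyclic UF against endometrium, whose 11 alternatives ran from -0.16 to 0.27 around -0.078, so it has no stable direction. Untested values that moved were this one (0.27 with filterByExpr) and those of eca-miR-204b in the conceptus against UF. In embryo against UF it was -5.04 with library totals, and ran from -6.86 to -5.80 with the samples of a mare left out. In YS fluid against UF it was -3.35 with library totals. The causes were not tested.

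Counts of called miRNAs moved more than the members did. In UF 15 were called, against 7 with DESeq2, 2 in the single fit, 0 with filterByExpr, 3 with known miRNAs only and 2 to 26 with a mare left out. In endometrium 13 were called, against 0 in the single fit, 3 with filterByExpr and 2 with known miRNAs only. Without the replicate block the counts were 0 in UF and 0 in endometrium (35 and 58 with an unadjusted p under 0.05), and for eca-miR-204b the log2 fold change was then -0.34 in UF and 0.22 in endometrium. For embryo against endometrium filterByExpr gave 140 in place of 256. For embryo against YS fluid the 91 became 140 in the single fit, 40 with filterByExpr and 54 with the replicate block. With both samples of a mare left out they became 40 to 74. The block changed no call of a member. Of the 5 miRNAs most like eca-miR-204b over 28 libraries, 3 were shared with Spearman's correlation, and of those of eca-miR-211, 2 were shared with library totals. Depth limits YS fluid most, where eca-miR-204b rests on 2 to 10 reads per library.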

Other observations

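The miRNAs most like eca-miR-211, named after their values were seen, differed from those most like eca-miR-204b. Over 28 libraries they were eca-miR-449a (Pearson's r 0.924), eca-miR-190b (0.920), eca-miR-34c (0.913), eca-miR-92b (0.910) and eca-miR-449b (0.904), of which 3 belong to the list of ciliated epithelium. All 5 were higher in UF than in endometrium on average: eca-miR-449a measured 29532 ± 4329.5 CPM (SD, n = 5) in pregnant UF and 5678 ± 3138 CPM (SD, n = 5) in pregnant endometrium, and eca-miR-190b measured 361 ± 31.7 CPM and 104 ± 15.8 CPM. These values are a description, since the libraries share their group differences and eca-miR-211 was put forward for its level in UF.

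Over the 9 UF libraries, as deviations from the group mean, eca-miR-211 was most like eca-miR-423-5p (0.943), eca-let-7c (0.911), eca-miR-92b (0.879), eca-miR-34b-3p (0.857) and eca-miR-92a (0.778). eca-let-7c is thus among the 5 miRNAs most like eca-miR-211 within UF and most like eca-miR-204b over all libraries.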
